A study of Mus musculus with 12 samples.

Results

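Pabpc1, Eif4b, Eif4a2 and Eif2s3x encode a poly(A)-binding protein and 3 translation initiation factors. Their mRNAs were examined for contacts with the RNA binding protein LARP1 in CD4 T cells that the study calls naive. The members were the LARP1 binding regions that overlapped, on the same strand, an exon of 1 of these 4 genes in GENCODE M21 on GRCm38. They came to 5 of the 826 exonic regions of the control list and 11 of the 1364 exonic regions of the Rnmt cKO list. All 4 genes had at least 1 region in both lists, whereas 2.61% of the 21768 annotated protein-coding genes had one in the control list and 3.2% in that of the Rnmt cKO. The genes were chosen as LARP1 targets with earlier results of these data known, so their presence in the lists is a description.

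The lists came from enhanced crosslinking immunoprecipitation (eCLIP), in which ultraviolet light fixes a protein to the RNA it touches and the sequenced cDNA stops beside the crosslinked base. The lists hold regions as first called, without the authors' later selection by reads over the input library and a control antibody (IgG). Both libraries were made from CD4 T cells of female mice, taken from lymph nodes, with the same rabbit antibody to LARP1 (abcam ab86359). Control mice were Rnmt fl/fl CD4cre - and Rnmt cKO mice were Rnmt fl/fl CD4cre +, so that both carried the floxed Rnmt allele, and the Cre transgene, driven by CD4 and therefore active from the CD4 and CD8 double-positive stage in the thymus, was present only in the cKO. Ages and the number of mice behind a library were not given in the sources used here. Of the 12 libraries of the series, 1 LARP1 library per genotype had a list used here. There was therefore no replicate check for any difference between genotypes, no test was made, and the values are given side by side.

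mRNAs of the terminal oligopyrimidine (TOP) class start with a cytosine at the cap followed by an unbroken stretch of C and T, and most encode ribosomal proteins and translation factors. LARP1 holds the cap and the first pyrimidines of these mRNAs, keeps the mRNAs stable and restrains their translation when mTOR signalling is low. RNMT adds the methyl group to the guanosine of the cap. PABPC1 coats the poly(A) tail and also binds LARP1. The helicase EIF4A2 unwinds 5′ leaders within the cap-binding complex eIF4F, EIF4B stimulates that helicase, and EIF2S3X is the gamma subunit of eIF2, which carries the initiator tRNA to the ribosome.

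The highest-scoring region of each gene lay in a 5′UTR in both lists, and its bases carry most of what follows. It is called the 5′ end region here, also in Eif4b, where it was not within 50 nt of an annotated start. The sequences below are the 30 nt around each of these regions in the Rnmt cKO list, on the mRNA strand in DNA letters of the GENCODE transcripts, with the bases inside the region in capitals. They cover chr15:36608944-36608973 for Pabpc1 (minus strand), chr15:102073912-102073941 for Eif4b (plus strand), chr16:23107748-23107777 for Eif4a2 (plus strand) and chrX:94212633-94212662 for Eif2s3x (minus strand).
Pabpc1: cCCCTTCtccccggcggttagtgctgagag
Eif4b: ctcatccgggtccTTTGcgttctctctccc
Eif4a2: gtccgcctgtcttTTCagtcgggcgctgag
Eif2s3x: cgagcattttccTTTTCtctccgagcaaga
In the control list the marked bases were fewer and lay inside those of the cKO list in all 4 mRNAs. They were 1 base in Pabpc1 and 2 bases in each of the others, shown again in capitals.
Pabpc1: cccctTctccccggcggttagtgctgagag
Eif4b: tcatccgggtccttTGcgttctctctccct
Eif4a2: cgtccgcctgtcttTTcagtcgggcgctga
Eif2s3x: cgagcattttccttTTctctccgagcaaga

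The sequences at the annotated starts bear on the name TOP. The printed Pabpc1 sequence begins at the annotated start of Pabpc1-201, whose first 12 bases are all C or T. Eif2s3x-202 starts with cttttctctc, in which 10 of 10 bases are pyrimidines, inside a run of 16. Several Eif4a2 transcripts start within a few bases of each other, and Eif4a2-224 opens with cttttcagtc, a cytosine followed by 5 further pyrimidines. Eif4b stood apart, since its annotated starts read cgccgcgcca (Eif4b-201) and ggtttcacgt (Eif4b-204), with 1 and 0 leading pyrimidines. Other annotated starts of the first 3 genes did not begin with C. Eif4a2-202, used for the distances below, opens with T, Eif4a2-201 and Eif4a2-223 with G, and Eif4a2-203 with A. Pabpc1-208 opens with A and Eif2s3x-201 with T. A TOP start was therefore annotated for some transcripts of Pabpc1, Eif4a2 and Eif2s3x, not for all, and not for Eif4b.

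Pabpc1 (ENSMUSG00000022283.15, chr15:36595661-36609668, minus strand) had 2 exonic control regions and 6 exonic cKO regions. In the control list, its 5′ end region was the single base 36608968, which lay 5 nt downstream of the Pabpc1-201 start, counting the first base as 0. Its score was 113. In PureCLIP, the program that called the regions, each crosslink site has a score for how much better the model explains it as a crosslink than otherwise, and a region score is the sum over its sites. These scores belong to the model of 1 library, so the lists were compared by rank and by the percent of regions of the same list that scored lower. The control region ranked 278 of 3189, above 91.3% of its list. In the Rnmt cKO list the region spanned 36608967 to 36608972, 1 to 6 nt from the start, held 4 sites and had a score of 190. It ranked 148 of 2367, above 93.7% of its list. Both regions sat in the 12 nt pyrimidine run at the cap.

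The other Pabpc1 regions did not overlap between the lists. The cKO list had a second region of high rank in the 5′UTR, at 36608787 to 36608794, 179 nt from the start, with 4 sites and a score of 151 (rank 173, above 92.7% of the list). It is printed here because it had no counterpart in the control list and spans the end of a 19 nt pyrimidine run and a short stretch of A (chr15:36608776-36608805, minus strand, region in capitals).
Pabpc1 second 5′UTR region: ttcttcctcttTTATAAAAtaacccggtga
Among the 914 exonic regions found in the cKO list and not in the control list it ranked 8, and among the 116 of these in a 5′UTR it ranked 3. The 5′UTR of this mRNA, 467 nt long, is known for A-rich stretches through which PABPC1 restrains its own translation. In the sequence it held 7 stretches of at least 4 A. Of these, 6 began between 72 and 127 nt from the start and were 6 to 8 nt long, upstream of this region, and the last began at 183 nt, inside it. Neither list had a region over the first 6 stretches.

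The remaining Pabpc1 regions were lower in their lists. In the cKO list, 36608590 in the 5′UTR (1 site, 383 nt from the start) scored 11.8 and stood above 57.2% of the list. In the coding sequence, 36605910 to 36605911 (2 sites) scored 18.6 and stood above 66.5%, and 36597074 (1 site) scored 7.78 and stood above 49.3%. The region in the 3′UTR, 36595828 to 36595830, had 3 sites and a score of 30.3, above 75.4% of the list, and began 170 nt from the end of the transcript. In the control list the only further region was 36599003 in the coding sequence, with 1 site, a score of 12.7 and 62.5% of the list below it. Bases that follow 36597074 were also found, as an exact match of 30 nt, in the processed pseudogene Gm16580, so reads there may match both places. No other region of the 4 genes had such a copy in another annotated gene. The study's methods removed secondary and low-quality alignments before regions were called.

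**Figure D1:**
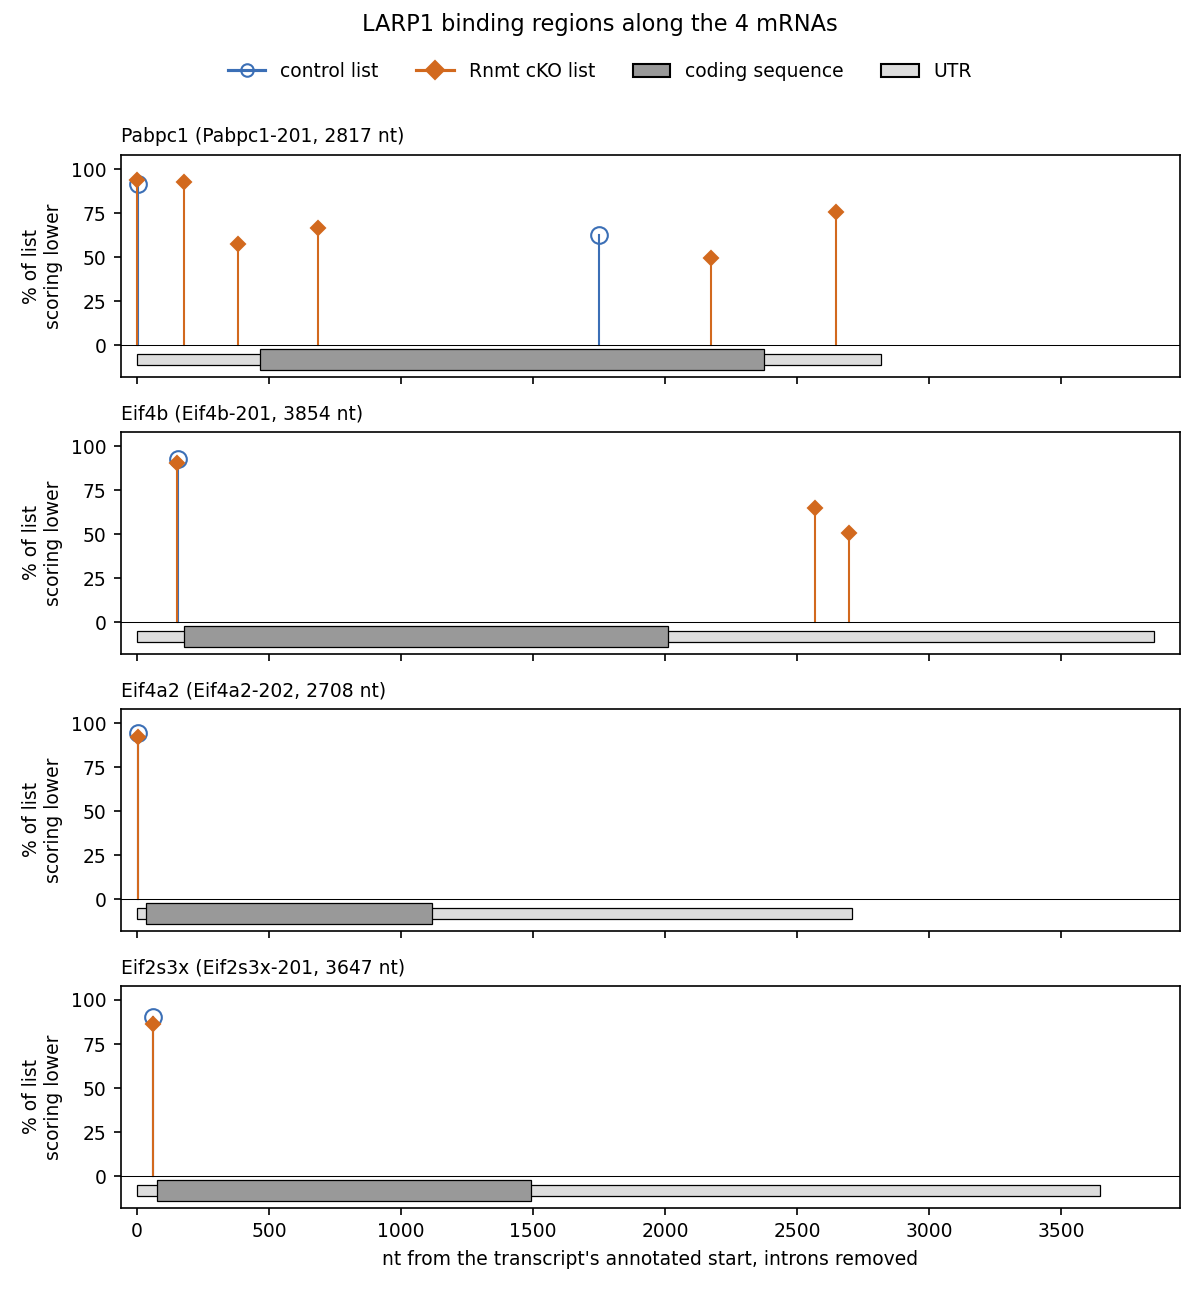
LARP1 binding regions along the mature mRNAs of the 4 genes, drawn to scale with introns removed (x axis, nt from the annotated start of the transcript named above each panel). Each stem is 1 region and its height is the percent of regions of the same list that scored lower, with open circles for the control list and filled diamonds for the Rnmt cKO list. The 5′ end regions of both lists stand at 86.1% to 94.4%, and Pabpc1 and Eif4b have further regions downstream, 7 of them in the cKO list.

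Eif4b (ENSMUSG00000058655.9, chr15:102073773-102097173, plus strand) had 1 control region and 3 cKO regions. The control region covered 102073927 and 102073928 with 2 sites scoring 68.8 and 80.2, in all 149, and ranked 225, above 92.9% of the list. The cKO region covered 102073925 to 102073928 with 4 sites, scored 111 and ranked 226, above 90.5%. Unlike in the other 3 genes, these regions were not within 50 nt of an annotated start. They lay 63 nt (control) and 61 nt (cKO) from Eif4b-204 and 154 and 152 nt from Eif4b-201, in the 5′UTR 24 and 26 nt ahead of the start codon. Their bases were the end of the 6 nt run tccttt and the G that follows it. RefSeq (GRCm38.p6) gave the same start as Eif4b-201. The additional cKO regions were both in the 3′UTR, at 102095889 to 102095892 (4 sites, score 17.6, above 65.1% of the list) and 102096017 (1 site, score 8.36, above 50.6%). The first of them lay at the end of a run of 7 T, printed here as the clearest of the distal sequences (chr15:102095876-102095905, plus strand).
Eif4b 3′UTR region: attgttttattttTTTAccccccaaggggg

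Eif4a2 (ENSMUSG00000022884.15, chr16:23107444-23114136, plus strand) had 1 region in each list, over nearly the same bases. In the control list it covered 23107761 and 23107762, with sites scoring 85.8 and 116, and its score of 202 ranked 179, above 94.4% of the list. In the cKO list it covered 23107761 to 23107763, with sites scoring 39.5, 77.2 and 24.8, and its score of 141 ranked 184, above 92.2%. Both began 2 nt downstream of the Eif4a2-202 start and lay in the run tcttttc. The base with the highest score was the same in both lists, a T 3 nt from that start. The distance depends on the transcript chosen, since Eif4a2-201 starts 317 nt and the RefSeq gene 293 nt upstream of the region. Eif4a2 carries 5 annotated snoRNAs in its introns, and neither list had an intronic region in the gene.

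Eif2s3x (ENSMUSG00000035150.15, chrX:94188707-94212862, minus strand) also had 1 region in each list. The control region covered 94212647 and 94212648, with sites scoring 56.2 and 40.9 from 5′ to 3′, and its score of 97 ranked 306, above 90.4% of the list. The cKO region covered 94212646 to 94212650 with 5 sites scoring 3.92, 2.89, 20.8, 35.4 and 3.2, and its score of 66.3 ranked 328, above 86.1%. They began 3 nt (control) and 1 nt (cKO) from the start of Eif2s3x-202, which RefSeq also gave. The highest site was 3 nt from that start in control cells and 4 nt in cKO cells, and both bases were T. From the longer Eif2s3x-201 the same regions lay at 61 and 59 nt.

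**Figure D2:**
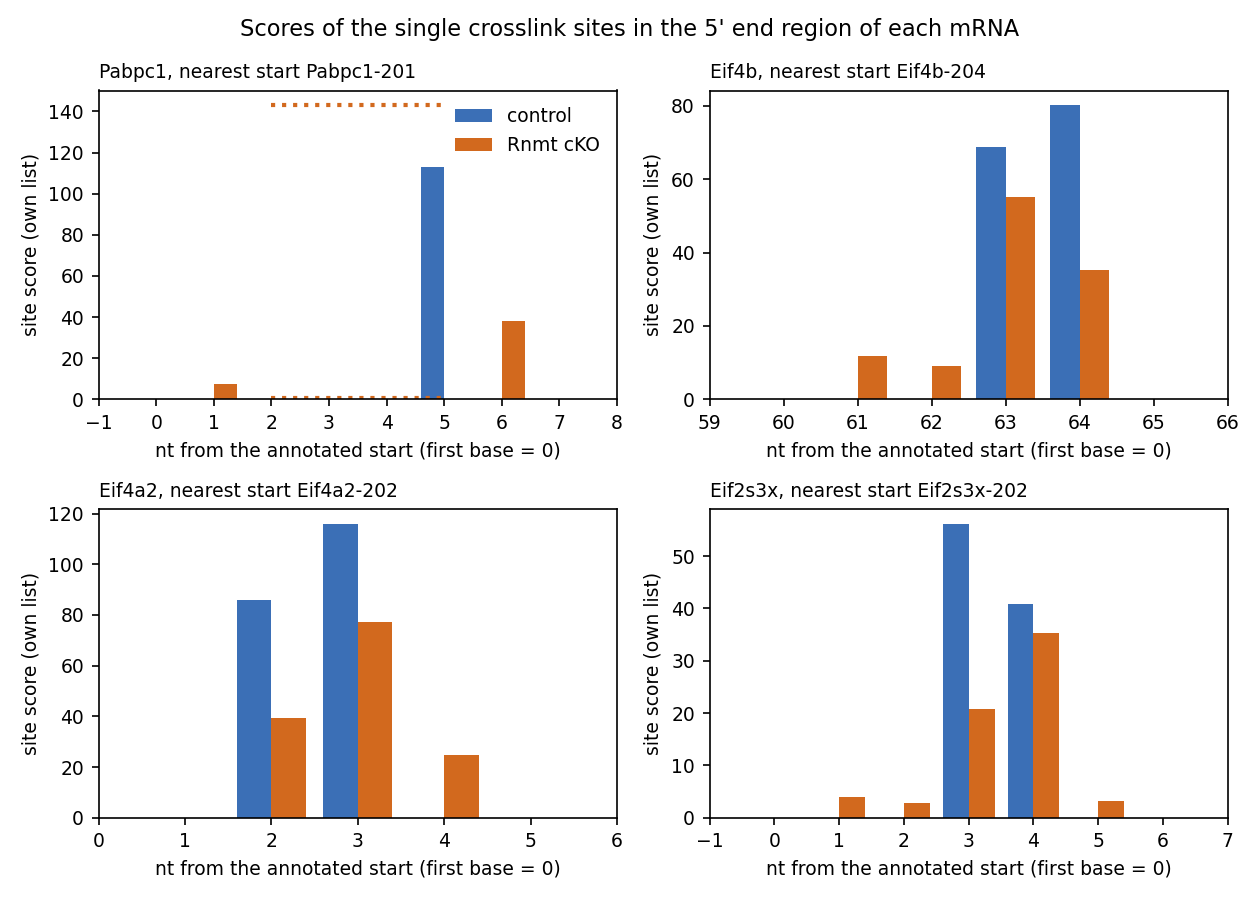
Scores of the single crosslink sites (y axis, on the scale of the site's own list) in the 5′ end region of each mRNA, by distance from the nearest annotated start (x axis, nt, first base 0), control in blue and Rnmt cKO in orange. For Pabpc1 in the cKO list, 4 sites were listed over 6 bases, so the positions of the inner 2 are not known and their scores, 0.767 and 143, are drawn as dotted lines over the possible bases. The cKO regions reach over more bases than the control regions, which they enclose.

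The 5′ end regions of the cKO list were wider than those of the control list in all 4 mRNAs, with 4 against 1 sites in Pabpc1, 4 against 2 in Eif4b, 3 against 2 in Eif4a2 and 5 against 2 in Eif2s3x. The same was common elsewhere. Of the 235 control 5′UTR regions with an overlapping region in the cKO list, 71.5% had more sites there and 90.2% lay wholly inside it. In Eif4b, Eif4a2 and Eif2s3x, the cKO sites outside the control region scored lower than the strongest site of their own region. In Eif2s3x these 3 sites held 5.91%, 4.37% and 4.83% of the region score. In the gap-free 5′UTR regions of the 4 genes, 6 of 7 control sites and 9 of 13 cKO sites were on a T, beside 69.8% and 65.2% of such sites over all 5′UTR regions.

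The control list had 5 regions in the 4 genes and the cKO list 11, and the difference was mostly in Pabpc1. Regions in both lists numbered 4, the 5′ end region of each gene, which is 4 of 5 in the control list and 4 of 11 in the cKO list. Over all exonic regions, 54.4% were shared in the control list and 33% in the cKO list, and over 5′UTR regions 77.8% and 67%. Among protein-coding genes, 1.08% carried a 5′UTR region both times, the 4 genes included. By class, the control regions were 4 in a 5′UTR and 1 in coding sequence, and the cKO regions 6 in a 5′UTR, 2 in coding sequence and 3 in a 3′UTR, where 5′UTR regions made up 36.6% and 25.8% of the exonic regions of the lists. Within 50 nt of an annotated start of the same gene lay 3 regions in each list, those of Pabpc1, Eif4a2 and Eif2s3x, beside 36.7% and 25.1% of all exonic regions. None of the 4 genes had a region on its opposite strand in either list.

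The place of the 4 genes in the lists was high but not at the top. Summed over all exonic regions of a gene, the scores placed Eif4a2 at rank 96, Eif4b at 110, Pabpc1 at 116 and Eif2s3x at 128 of the 636 genes scored in control cells. In the cKO list, Pabpc1 was at rank 88, Eif4a2 at 118, Eif4b at 122 and Eif2s3x at 165 of 752 genes. Between the lists, the percent scoring lower than the 5′UTR region changed by 2.46 points in Pabpc1, -2.49 in Eif4b, -2.16 in Eif4a2 and -4.26 in Eif2s3x (cKO minus control). For the 236 protein-coding genes that carried a 5′UTR region both times, the quartiles of this change were -2.68 and 2.64 around a median of -0.23, so that 3 of the 4 genes lay within the quartiles and Eif2s3x below them.

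These places depend on what else is in a list. In the control list 25.9% of regions were exonic and 34.2% carried a score that recurred at least 20 times, against 57.6% and 1.48% in the cKO list, and no region of the 4 genes had such a score. Ranked among exonic regions alone, Pabpc1 stood above 84.4% in the control list and 91.6% in the cKO list, Eif4b above 86.2% and 87.5%, Eif4a2 above 88% and 89.7%, and Eif2s3x above 82.9% and 82.6%. The direction of the change thus turned for Eif4b and Eif4a2. Among 5′UTR regions alone, the values were 63.9% and 71.9% for Pabpc1, 66.9% and 65.3% for Eif4b, 69.5% and 69% for Eif4a2, and 61.9% and 59.1% for Eif2s3x. Pabpc1 was higher and Eif2s3x lower in the cKO list under these 3 rankings, but by score per site Pabpc1 was lower there, above 93.2% of the control list and 90.7% of the cKO list. By that measure Eif2s3x went from 88.1% in the control list to 71.3% in the cKO list, Eif4b from 91.1% to 85.2% and Eif4a2 from 92.8% to 90.7%.

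The 5′UTR regions of the 4 genes were rich in pyrimidines, and so were those of other genes. In the 15 nt centred on the first base of the region, C and T made up 84.7% on average in the control list (4 regions, 73.3% to 100%) and 80% in the cKO list (6 regions, 66.7% to 100%). For the Pabpc1 5′ end region the bases ahead of the annotated start were not used here, so its window held 13 bases in the control list (92.3% C or T) and 9 in the cKO list (100%), all of them from the start onwards, and both means include it. Over all 5′UTR regions, with windows cut in the same way where bases were not at hand, the mean was 74.8% in the control list and 72.9% in the cKO list. A run of at least 5 pyrimidines reached into 4 of 4 control regions, and 74.8% of all 5′UTR regions of that list had one. It reached into the 5′ end regions of all 4 genes and the second Pabpc1 region in the cKO list, where 70.5% of all 5′UTR regions had one. The runs at the 5′ end regions were 16 nt in Eif2s3x, 12 nt in Pabpc1, 7 nt in Eif4a2 and 6 nt in Eif4b.

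Of 45 further initiation-factor and poly(A)-binding genes, control cells had exonic regions in 3 and cKO cells in 7, while 2.61% and 3.2% of all protein-coding genes had one. No exonic region was found in either list for 37 of them, 2 had one in both, 1 in the control list only and 5 in the cKO list only. Eif2a, which encodes an alternative initiator tRNA carrier, was the 1 gene among them with a shared region. It lay 3 nt (control) and 4 nt (cKO) from a start and stood above 75.6% of the control list and 41.4% of the cKO list. Eif4a1, the close relative of Eif4a2, had 1 region per list at different places, in coding sequence above 10% of the control list and in a non-coding exon above 35.8% of the cKO list. Eif4e2, a cap-binding relative of eIF4E, had a 3′UTR region in the control list (above 71.1%).

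In the cKO list alone, Eif1, which helps select the start codon, had a 5′UTR region above 53.2% of the list, Eif1ax, which works beside it, one above 35%, and the nuclear poly(A)-binding protein gene Pabpn1 one above 26.7%, in exons shared with the annotated gene Gm20521. Eif4g2, a relative of the scaffold eIF4G, had a coding region above 42.2%, and Eif4ebp2, a repressor of eIF4E, a 3′UTR region above 3.97%. None of the regions of these 8 genes stood as high in its list as the 5′ end region of any of the 4 genes. Because the 4 genes were chosen as LARP1 targets with earlier results known, this gap is a description only. A gene without a region may have had too few reads to be called, since the lists carry no read numbers.

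**Figure D3:**
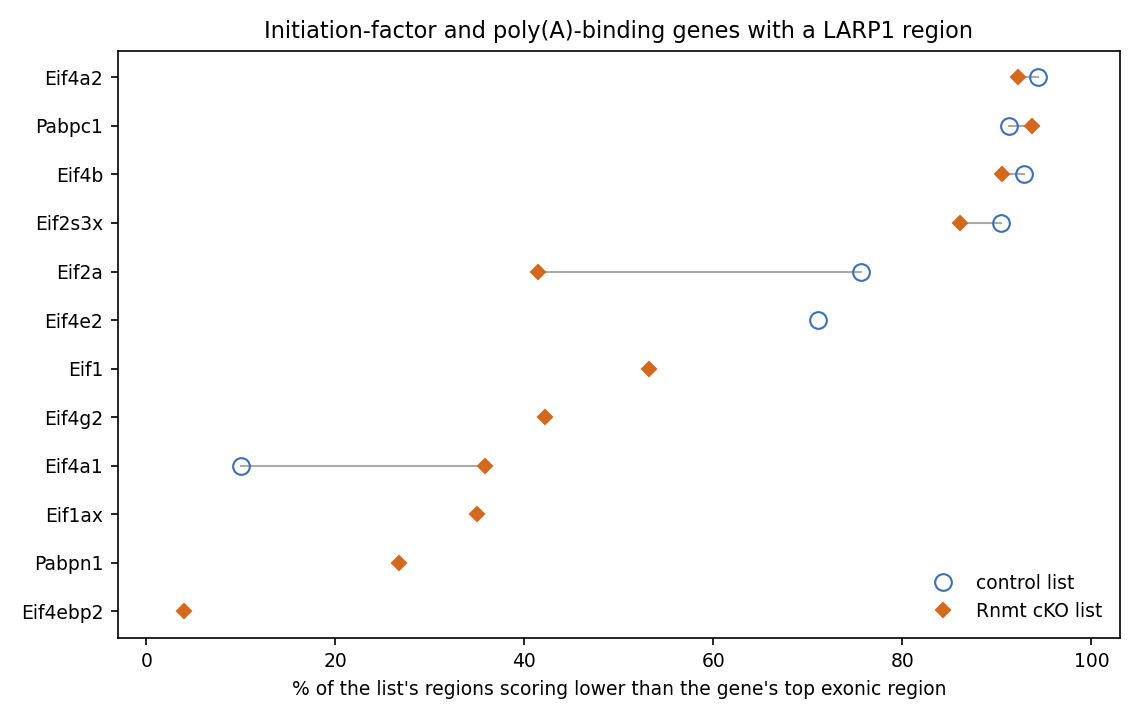
Place of the highest-scoring exonic region of each initiation-factor or poly(A)-binding gene that had one (x axis, percent of the list's regions scoring lower; y axis, gene), with open circles for the control list, filled diamonds for the Rnmt cKO list and a line where a gene was in both. Eif4a2, Pabpc1, Eif4b and Eif2s3x, chosen as LARP1 targets with earlier results known, lie at 86.1% or above in both lists. The next gene is Eif2a at 75.6% in the control list and Eif1 at 53.2% in the cKO list.

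By the medians of their top regions, the 4 genes stood slightly above the eIF3 subunits and below the elongation factors and ribosomal proteins, with overlapping ranges. The median over the 4 genes of the percent scoring lower than the top region was 92.1% (90.4% to 94.4%) for control and 91.3% (86.1% to 93.7%) for cKO. For the 8 of 14 eIF3 subunits with a region the medians were 89.7% (74.7% to 95.5%) and 89.1% (49.7% to 95%). For the 5 of 5 elongation factors they were 96% (74.2% to 99.9%) and 95.6% (70.2% to 99.9%). For ribosomal proteins they were 98.1% (79 of 87 genes, 1.98% to 99.8%) and 97.8% (81 of 87, 71.8% to 100%). The 4 genes had 5 regions in the control list, 1 per gene apart from Pabpc1. The 79 ribosomal protein genes with a region had 204, 114 of them in coding sequence. In the cKO list the 4 genes had 11 regions and 81 ribosomal protein genes had 357, 256 of them in coding sequence. The 8 eIF3 subunits with a region had 13 in each list. These sets were described without a test.

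**Figure D4:**
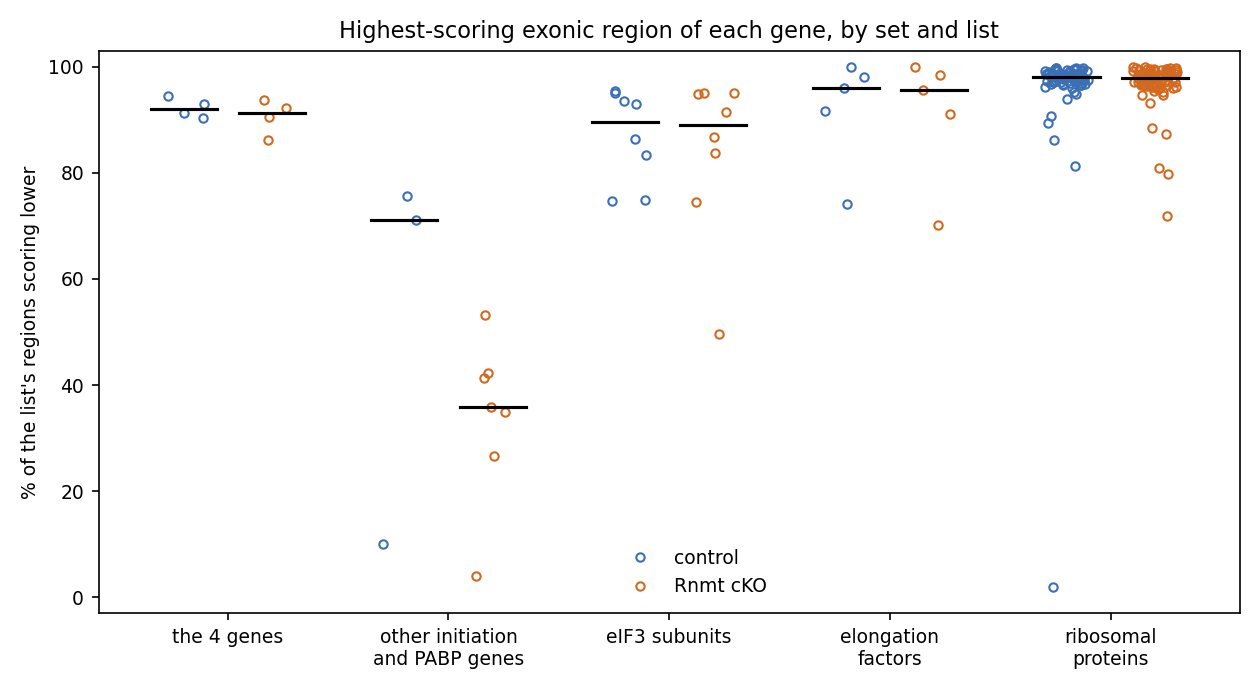
Percent of the list's regions that scored lower than the highest-scoring exonic region of each gene (y axis), for the 4 genes and 4 comparison sets (x axis), control in blue and Rnmt cKO in orange. Each circle is a gene with a region, spread sideways for visibility, and the black lines are medians, which for the 4 genes are 92.1% and 91.3%.

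As a check of the labels, Rnmt had no exonic region in either list, so the lists do not show its deletion. The CD4 T cell markers Cd4 and Cd3d had exonic regions in both lists, and of 10 markers of other cells none had one in either, which for binding regions is no measure of expression. The read depth of the libraries was not known from the lists, and levels of the 4 mRNAs were not analysed here. A difference in region number or width between genotypes cannot be told apart from a difference in depth, in mRNA level or between single libraries.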

How the data were processed

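eCLIP of LARP1 was carried out by the authors on CD4 T cells that the study calls naive. Its methods name a kit for CD4 T cells for eCLIP, and a kit for naive cells only for another experiment. Per the study's methods, barcodes were extracted with UMI-tools, adapters trimmed with cutadapt, reads aligned to mm10 (GRCm38) with STAR 2.5.2b, duplicates and low-quality alignments removed, and regions called with PureCLIP against the size-matched input. In 5580 of 5580 deposited regions the score equalled the summed site scores (within 1%). The authors' later selection by reads over input and IgG was not applied to these lists. Labels and methods name different CD4 T cell isolation kits.

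Regions on chromosome Y were left out (10 control, 14 cKO). The rest were joined to GENCODE M21 exons by Python 3.11.15, classed as 5′UTR, CDS, 3′UTR or non-coding exon in that order, and called shared from an overlap of 1 nt. Site scores were read from 5′ to 3′, since on the minus strand shares of score at shared positions correlated better in that order (Pearson r = 0.67 over 278 positions, 0.44 the other way). Members and lists were chosen with earlier results of these data known. Named were the 4 genes and each gene of the initiation list with a region. The code was tested on simulated transcripts. Other libraries were not analysed here.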

Additional observations from a re-analysis of the deposited data

How the results depend on the processing

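No paired analysis was possible because there was 1 library per genotype. Of 44 alternative counts of the regions of the 4 genes, 41 were within 1.5 times the value given, including those without recurring scores, an alternative chosen after seeing the data. With at least 2 crosslink sites per region, the exonic regions of the control list fell to 3, and with an overlap of at least 50% of each region the shared regions fell to 2 in both lists. Of 32 alternative percentiles of single genes, 29 were classed as moved from the value given, by a much narrower limit than that for counts. For Pabpc1 in the control list, a change from 91.3% to 92.1% (highest single-site score) was classed as the same. For Eif4a2 in that list, a change from 94.4% to 92.8% (score per site) was classed as moved. The median percent scoring lower than the top regions was 85.3% (control) and 88.6% (cKO) among exonic regions and 65.4% and 67.2% among 5′UTR regions. In the cKO list it was 89.8% by the highest site and 87.9% by score per site. The pyrimidine share was 72.1% in a 30 nt window in the control list and 88.1% in a 7 nt window in the cKO list. The cause of these shifts was not tested. Unknown depth and single libraries limit every comparison between genotypes.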
